A study of Sus scrofa with 12 samples.

Results

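The genes described here code for ATP-dependent chromatin remodellers, for subunits of their complexes and for proteins with a bromodomain. They were chosen by symbol in a table of SMART-seq counts from porcine (Sus scrofa) embryos: the SMARCA to SMARCE genes, CHD1 to CHD9, the lettered genes ARID1 to ARID5, BRD1 to BRD9, and the INO80 and ACTL6 genes. The rule took 42 of the 29329 genes in the table and used no measured value. After the filter on low counts 40 of the 42 members were tested, among 17995 genes in all. SMARCA2, ACTL6B and CHD5 were not analysed here.

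Embryos from in vitro matured oocytes were fertilised and cultured in vitro, and a library was made from a pool of several embryos. The 12 libraries formed 4 groups of 3. The control groups con-2c and con-4c are labelled as blank control, and the groups si-2c and si-4c came from embryos injected with si-CCNB2, a short interfering RNA (siRNA) that targets the mitotic cyclin CCNB2. The 4c controls set against the 2c controls are called the control comparison (con-4c over con-2c), the si libraries set against the controls of the same title are called the 2c knockdown comparison (si-2c over con-2c) and the 4c knockdown comparison (si-4c over con-4c), and si-4c set against si-2c is called the si comparison. Title and tissue label gave opposite stages in all 12 libraries (title 2c with a label of 4-cell embryos, title 4c with a label of 2-cell embryos), so group names here stand for the titles only. The study calls these controls both normal embryos and the NC (negative control) group, and its general methods list negative controls among the injected solutions. It was thus not clear from the sources whether the control embryos were injected, so effects of the siRNA and of the injection cannot be told apart. The study describes 3 sets of pooled embryos for each type and speaks in general of independent experiments, without saying that the libraries of a group came from separate cultures, so the p-values measure the spread between these libraries, which may be technical. The study lists 2 siRNAs against CCNB2 and does not say which was injected for these libraries. They are shown because they define the treatment of the si groups:
siRNA 1 against CCNB2: gcagguccacuccaaguuu
siRNA 2 against CCNB2: gcuuauaccaguucccaaa

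Chromatin remodellers use the energy of ATP to slide, eject or exchange nucleosomes. SWI/SNF (BAF) complexes open chromatin at promoters and enhancers, ISWI enzymes space nucleosomes, CHD enzymes act in spacing, in elongation and in the NuRD complex, and INO80 moves nucleosomes and takes part in the exchange of histone variants. Bromodomains bind acetylated lysines of histones, and BET proteins such as BRD2 and BRD3 use them to recruit the transcription machinery. In early embryos these proteins are first supplied by the oocyte, and SMARCA4 (BRG1) of the oocyte is known as a factor needed for activation of the zygotic genome in the mouse.

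Library totals were between 27785233 and 39510908 counts. They were 27785233 to 28771777 in con-4c and at least 33270517 in the other groups. The TMM factors used for scaling were 0.852 to 0.962 in con-2c, 1.06 to 1.09 in con-4c, 1.12 to 1.21 in si-2c and 0.871 to 0.915 in si-4c. Depth and scaling thus differed between the groups compared. CCNB2 had 444 to 487 CPM for con-2c, 429 to 510 for con-4c, 17.8 to 28.8 for si-2c and 40.4 to 46.9 for si-4c, so every si library was below every control library. By edgeR CCNB2 fell in the 2c and the 4c knockdown comparison (log2 fold change -4.36 and -3.48, adjusted p 1.53e-12 and 5.14e-12) and also across titles (-3.45 for si-4c over con-2c, and -4.39 for si-2c over con-4c). It had 0.03 in the control comparison (edgeR adjusted p 0.878), 0.91 in the si comparison (adjusted p 5.63e-05) and an interaction, the 4c less the 2c knockdown comparison, of 0.88 (adjusted p 7.89e-04). Over the alternatives given with the processing, the interaction of CCNB2 ranged from 0.23 to 1.09, with an adjusted p (edgeR or DESeq2) up to 0.299. Markers of oocytes and early embryos summed to between 3540 and 5290 CPM, 5100 to 5290 in con-2c, 3540 to 3550 in con-4c, 3720 to 3960 in si-2c and 4760 to 4940 in si-4c. All 10 of these markers had counts in every group, and their sum was lower in con-4c and si-2c than in the other two groups. Most of that split came from OOEP (means of 1338, 371, 440 and 1027 CPM for con-2c, con-4c, si-2c and then si-4c) and ZP4 (1124, 528, 482 and 812), while BMP15 was lowest in con-2c (887, 985, 1228 and 1046) and KPNA7 stayed between 976 and 1123. The 6 markers of cumulus and granulosa cells in the table summed to 0.799 to 1.34, 1.43 to 1.79, 1.58 to 2.51 and 0.318 to 1.11 CPM in the same order of groups, with CYP11A1 and HAS2 at 0 in all groups but con-4c and PTX3 also at 0 in con-2c. Of 7 sperm markers listed only 1, AKAP4, was analysed. AKAP4 had 0 CPM in con-2c and si-4c, 0 to 0.618 in con-4c and 0.171 to 1.16 in si-2c. The part of these cells in the results below was not tested. In bulk samples, fewer cells of a type and less RNA per cell cannot be told apart.

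In the control comparison 5 of 40 members (12.5%) were called, which takes an edgeR adjusted p under 0.05 and a log2 fold change of 1 or more in size, while 17.7% of all genes tested were called. BRD2, CHD8, CHD9 and INO80C rose (14.4% of all genes did) and BRD1 fell (3.25% of all genes did). Without the minimum fold, 17 members were higher and 3 were lower, 50% of the 40, against 20.7% higher and 15.1% lower, 35.8% in all, among all genes. The median log2 fold change of the members was 0.26, and that of all genes 0.11.

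BRD2 rose in the 2c knockdown comparison and was the only member called by edgeR, beside 10.7% of the whole table called higher and 1.80% called lower, 12.5% in either direction. Without the minimum fold 14 members were higher and 1 was lower, beside 16.6% and 12.3% of all genes, 29.0% together. The median was 0.24 for members (0.18 to 0.37 with 1 library left out) and 0.12 for all genes.

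The signs were turned round in the 4c knockdown comparison. It shares the con-4c libraries with the control comparison, on the opposite side, so opposite signs are partly built in. The 2c knockdown comparison shares the con-2c libraries with the control comparison, on the same side. The 3 comparisons are therefore not independent results. BRD2, CHD8 and SMARCA4 fell and BRD1 rose, 4 of 40 members called, where 15.8% of all genes were called lower and 3.12% higher, 19.0% together. Without the minimum fold 17 members were lower and 2 were higher, beside 21.7% and 15.1% of all genes, 36.8% together. The median was -0.31 for members and -0.11 for all genes. With library totals in place of TMM factors the median of all genes moved from 0.11 to 0.38, from 0.12 to 0.52 and from -0.11 to -0.37 in these 3 comparisons, and the members' medians moved with it, to 0.53, 0.64 and -0.57. Members called under that scaling and not under TMM included BRD8 (1.19), CHD2 (1.15) and SMARCC1 (1.05) in the control comparison, CHD8 (1.15) and CHD9 (1.17) in the 2c knockdown comparison, and BRD8 (-1.15) and SMARCC1 (-1.03) in the 4c knockdown comparison.

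**Figure D1:**
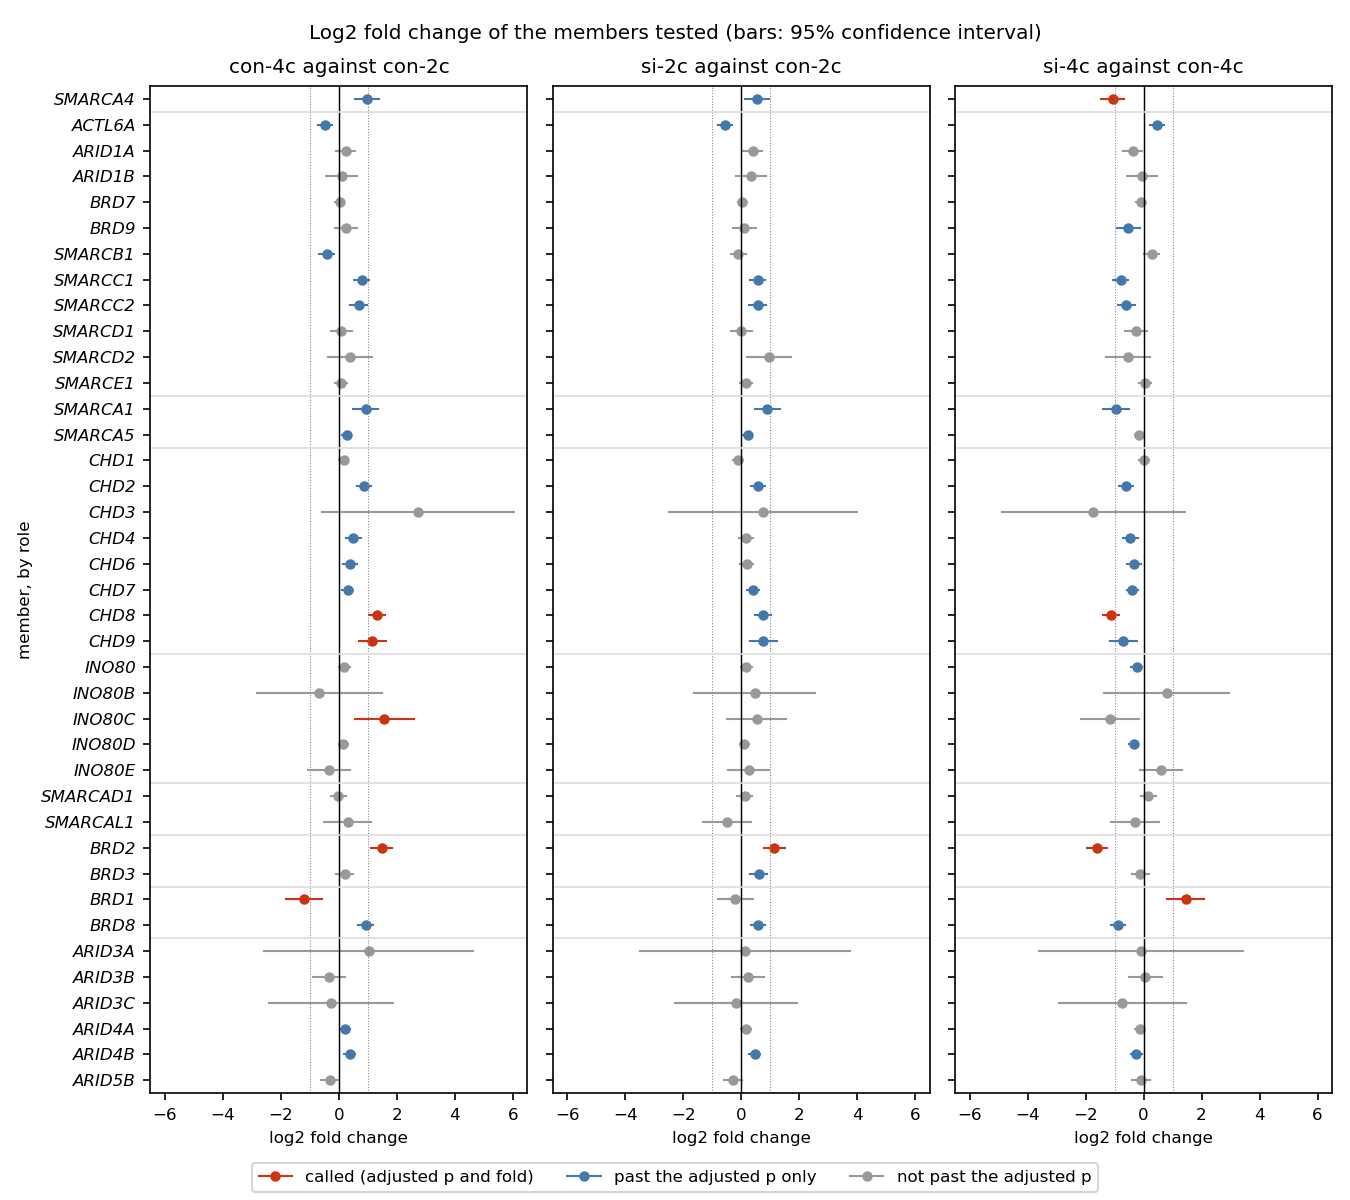
Log2 fold change (x axis) of 39 of the 40 tested members (y axis, by role) in 3 comparisons, with bars for the 95% confidence interval from edgeR and dotted lines at the minimum fold. Most points lie between the dotted lines, and BRD2, CHD8, SMARCA4 and BRD1 are the called members of the 4c knockdown comparison.

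BRD2 is a BET protein that binds acetylated histone H4 and travels with transcribing RNA polymerase II. BRD2 (ENSSSCG00000001471, chr7:25096579-25162591 in Sscrofa11.1) had 14.2, 11.9 and 14.2 CPM for con-2c, 36.2, 38.4 and 36.9 for con-4c, 38.8, 28.6 and 21.7 for si-2c, and 12.1, 13.6 and 10.9 for si-4c. Every con-4c and si-2c library was above every con-2c and si-4c library, and the si-2c libraries were the most spread. BRD2 rose 2.77-fold in the control comparison (1.47 on the log2 scale, SE 0.17, edgeR adjusted p 2.67e-06) and 2.21-fold in the 2c knockdown comparison (1.15, SE 0.17, edgeR adjusted p 5.63e-05). It fell in the 4c knockdown comparison (-1.61, SE 0.17, edgeR adjusted p 1.02e-06) and in the si comparison (-1.28, SE 0.17, edgeR adjusted p 1.86e-05). The call in the 2c knockdown comparison was lost without si-2c replicate 1, the highest of its group (0.90, edgeR adjusted p 0.000236).

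BRD3, a further BET gene, ranged from 8.11 to 8.89, 8.82 to 10.7, 12.3 to 13.6 and 8.01 to 9.86 CPM in the same order of groups. BRD3 was thus highest in si-2c, where no library overlapped another group, and among the control and the 2 knockdown comparisons only the 2c knockdown one passed (0.60, SE 0.14, edgeR adjusted p 0.00347). Its difference between si-2c and con-4c did not (0.40, 95% confidence interval 0.11 to 0.70, edgeR adjusted p 0.0983).

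BRD1 went the other way. It is a scaffold of histone acetyltransferase complexes with KAT6 and KAT7 enzymes. BRD1 (ENSSSCG00000032820, chr5:774307-808016) had 6.30, 8.59 and 5.995 CPM for con-2c, 2.14, 2.49 and 4.45 for con-4c, 8.80, 4.63 and 4.64 for si-2c, and 8.16, 9.54 and 7.23 for si-4c. Every con-4c library was below all libraries of the other groups. BRD1 fell in the control comparison (-1.201, SE 0.30, edgeR adjusted p 0.00439) and rose in the 4c knockdown comparison (1.46, SE 0.30, edgeR adjusted p 9.77e-04), 2.74-fold. With library totals the log2 fold change in the control comparison was -0.92, short of the minimum fold. In the 2c knockdown comparison it had a log2 fold change of -0.21 (95% confidence interval -0.81 to 0.39, edgeR adjusted p 0.654). BRD1 there turned to 0.20 under library totals and had -0.59 as its lowest value over the alternatives. In si-2c against con-4c it was 0.99 (SE 0.30, edgeR adjusted p 0.0526), and this difference was called without con-2c replicate 3 (1.02), con-4c replicate 3 (1.38) or si-2c replicate 3 (1.15), and under library totals (1.12).

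BRD8, the bromodomain subunit of the TIP60 acetyltransferase complex, followed BRD2 at smaller size. It ranged from 18.0 to 20.7 CPM for con-2c, 35.4 to 39.4 for con-4c, 27.5 to 29.8 for si-2c and 16.4 to 21.7 for si-4c. The con-4c, si-2c and con-2c ranges lay apart in that order, and si-4c overlapped con-2c. Its log2 fold changes were 0.92 (SE 0.12, edgeR adjusted p 9.26e-06), 0.57 (SE 0.12, adjusted p 0.00127) and -0.89 (SE 0.12, adjusted p 1.29e-05) in the control, 2c knockdown and 4c knockdown comparisons, all below the minimum fold.

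**Figure D2:**
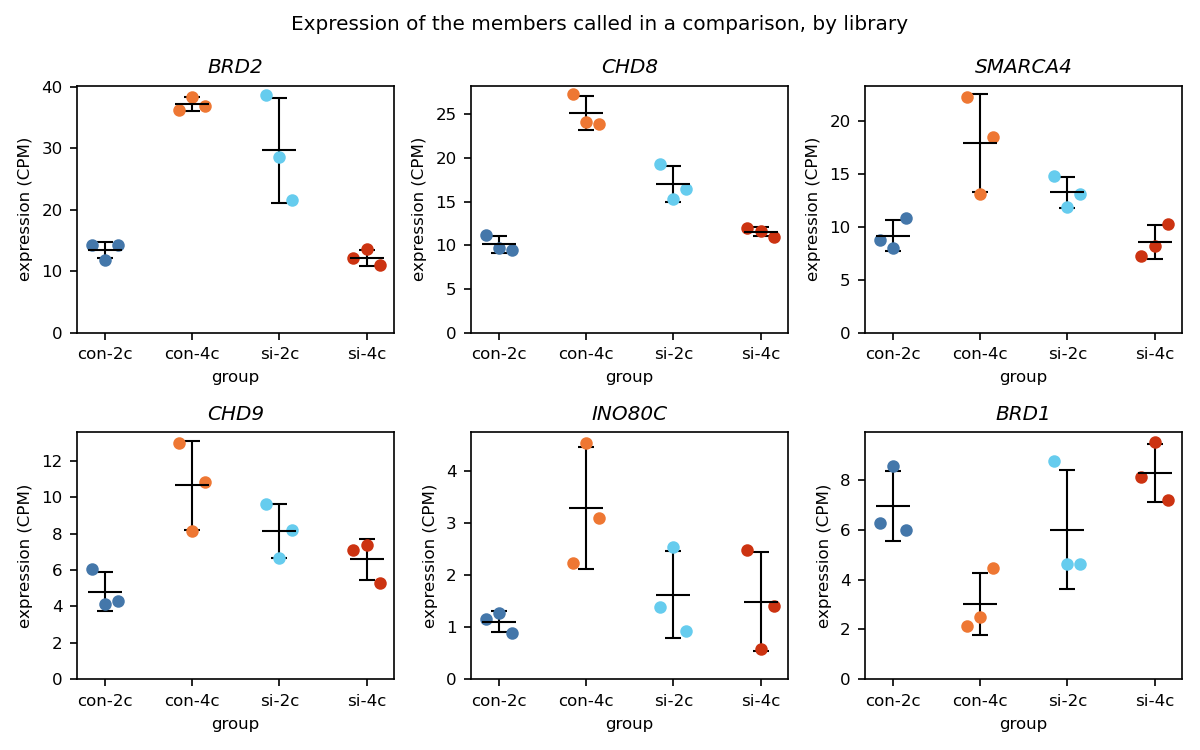
Expression in CPM (y axis, from 0) of the 6 members called in the control, 2c knockdown or 4c knockdown comparison, with 1 point per library, a horizontal line for the mean and a bar for the SD (n = 3) in each group (x axis). BRD2 and CHD8 are high in con-4c and si-2c, and BRD1 is lowest in con-4c.

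In the control comparison all 8 tested CHD genes had positive log2 fold changes, and their con-4c libraries did not overlap con-2c in CPM (28.6% of all genes lay apart in that direction and 48.6% in either). For CHD3 this rests on scaling alone, since the lowest con-4c and the highest con-2c library both had 4 counts. Of the 8, 6 were higher at the edgeR adjusted p (20.7% of all genes) and CHD8 and CHD9 were called (14.4% of all genes). CHD8 binds beta-catenin and the promoters of many active genes. CHD8 (ENSSSCG00000002127, chr7:77719476-77780148) had 11.2, 9.66 and 9.44 CPM for con-2c, 27.3, 24.2 and 23.9 for con-4c, 19.3, 15.3 and 16.5 for si-2c, and 12, 11.7 and 10.96 for si-4c. Its groups lay apart in the order con-4c, si-2c and then the other two groups, which overlapped. CHD8 rose 2.49-fold in the control comparison (1.32, SE 0.13, edgeR adjusted p 4.09e-07) and fell in the 4c knockdown comparison (-1.12, SE 0.13, edgeR adjusted p 2.35e-06). In si-2c it was 0.75 above con-2c (SE 0.13, edgeR adjusted p 2.40e-04) and below con-4c (-0.56 on the log2 scale, SE 0.12, edgeR adjusted p 0.00881). CHD8 was thus in between in si-2c, at differences below the minimum fold.

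CHD9 is a close relative of CHD8. CHD9 (ENSSSCG00000033591, chr6:31829870-32071975) had 6.05, 4.13 and 4.27 CPM for con-2c, 13.0, 8.12 and 10.8 for con-4c, 9.62, 6.67 and 8.20 for si-2c, and 7.11, 7.37 and 5.29 for si-4c. The con-2c libraries were below all con-4c and si-2c libraries. CHD9 rose in the control comparison (1.15, SE 0.22, edgeR adjusted p 5.93e-04), but without con-4c replicate 1 the value was 0.97, under the minimum fold. It was 0.76 higher in si-2c than con-2c (SE 0.22, edgeR adjusted p 0.0149) and below con-4c in si-4c (-0.69, SE 0.22, edgeR adjusted p 0.0192), both short of the minimum fold.

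CHD2, which sits at active genes and deposits histone H3.3, ranged from 22.5 to 27.3 CPM for con-2c, 40.6 to 51.3 for con-4c, 35.1 to 39.1 for si-2c and 26.9 to 32.2 for si-4c. Its log2 fold changes were 0.87, 0.58 and -0.60 in the control, 2c knockdown and 4c knockdown comparisons (edgeR adjusted p 1.26e-05, 8.92e-04 and 4.74e-04). CHD7, a regulator of enhancers, had 0.30, 0.40 and -0.38 (edgeR adjusted p 0.0190, 0.00344 and 0.00405), with 33.1 to 39.0 CPM in con-2c and 43.5 to 47.0 in con-4c. CHD4, the ATPase of NuRD, was higher in con-4c than con-2c (0.50, SE 0.12, edgeR adjusted p 0.00292) and below con-4c in si-4c (-0.45, edgeR adjusted p 0.00591), and CHD6 gave 0.38 and -0.32 (edgeR adjusted p 0.0117 and 0.0289). None of these 4 genes was called by edgeR with TMM factors in the control, 2c knockdown or 4c knockdown comparison. CHD1, which binds trimethylated lysine of histone H3 at transcribed genes, had the smallest log2 fold change of the CHD genes in the control comparison, with 77.9 to 80.8 CPM for con-2c, 86.4 to 92.1 for con-4c, 69.5 to 80.4 for si-2c and 86.8 to 91.6 for si-4c. It passed the edgeR adjusted p for si-2c set against con-4c (-0.27, adjusted p 0.0429) and in the si comparison (0.29, adjusted p 0.0101), the latter turning to -0.10 under library totals. Over the alternatives the former ranged from -0.33 to -0.14, with an adjusted p (edgeR or DESeq2) up to 0.471. CHD3 had 0 to 22 counts in a library, too few for a fold to be read.

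SMARCA4 is an ATPase of SWI/SNF, and its log2 fold changes in the control and 4c knockdown comparisons were the largest among the SWI/SNF members. SMARCA4 (BRG1, ENSSSCG00000013629, chr2:69717175-69810301) had 8.72, 7.99 and 10.8 CPM for con-2c, 22.3, 13.1 and 18.5 for con-4c, 14.8, 11.9 and 13.1 for si-2c, and 7.20, 8.21 and 10.3 for si-4c. All con-4c and si-2c libraries were above all con-2c and si-4c libraries. SMARCA4 fell in the 4c knockdown comparison (-1.07, SE 0.19, edgeR adjusted p 3.48e-04), and the call was lost without con-4c replicate 1 (-0.88) or with si-4c replicate 1 left out (-0.95). In the control comparison it was 1.96-fold higher (0.97, SE 0.19, edgeR adjusted p 8.00e-04), just short of the minimum fold and called without con-2c replicate 3 (1.07) or con-4c replicate 2 (1.15), under library totals (1.24), and with genes of at least 1 CPM (1.002). In the 2c knockdown comparison it was 0.53 higher (SE 0.19, edgeR adjusted p 0.0470). Over the alternatives this value ranged from 0.44 to 0.92, with an adjusted p (edgeR or DESeq2) up to 0.166.

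The scaffold subunits SMARCC1 (BAF155) and SMARCC2 (BAF170) moved like the ATPase, at less than the minimum fold. SMARCC1 ranged from 34.9 to 44.6 CPM for con-2c, 62.7 to 77.1 for con-4c, 53.6 to 65.1 for si-2c and 34.6 to 45.6 for si-4c, with log2 fold changes of 0.79, 0.56 and -0.78 in the control, 2c knockdown and 4c knockdown comparisons (edgeR adjusted p 7.24e-05, 0.00198 and 8.27e-05). SMARCC2 had 19.0 to 24.4, 32.0 to 38.3, 27.2 to 35.9 and 19.6 to 27.2 CPM in the groups and log2 fold changes of 0.68, 0.56 and -0.60 (edgeR adjusted p 0.00117, 0.00622 and 0.00326). For both genes con-4c and si-2c lay above con-2c, and con-4c above si-4c, without overlap.

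ACTL6A and SMARCB1 had the opposite sign in the control comparison, at sizes that depended on the scaling. ACTL6A (BAF53A), an actin-related subunit of SWI/SNF, INO80 and TIP60 complexes, had 71.5 to 90.7 CPM for con-2c, 57.9 to 60.4 for con-4c, 49.3 to 67.7 for si-2c and 78.7 to 84.0 for si-4c. ACTL6A was lower in con-4c and si-2c than con-2c (-0.47 and -0.56, edgeR adjusted p 0.00361 and 0.00127) and above con-4c in si-4c (0.46, edgeR adjusted p 0.00462), all below the minimum fold. Under library totals the 3 values were -0.20, -0.15 and 0.20, and none passed the edgeR adjusted p (0.221, 0.347 and 0.208). SMARCB1 (SNF5), a core subunit, had 20.7 to 28.3 CPM in con-2c and 17.2 to 19.3 in con-4c (-0.42, SE 0.12, edgeR adjusted p 0.0142, but -0.16 with adjusted p 0.470 under library totals), and neither the 2c knockdown comparison nor the 4c knockdown comparison passed. Of the 11 tested SWI/SNF subunits other than the ATPase, 2 were higher and 2 lower at the edgeR adjusted p in the control comparison (36.4%, close to the 35.8% of all genes). None of the 11 was called there by edgeR or DESeq2, beside 17.7% and 17% of all genes. At an unadjusted edgeR p below 0.05 there were 4 (36.4%), beside 44.1% of all genes.

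Of the remaining SWI/SNF members, SMARCD2 was called in 1 comparison and by the interaction, and the others in none. SMARCE1 (BAF57) had group means between 64.5 and 71.8 CPM, SMARCD1 (BAF60A) between 21.2 and 25.4, BRD7 of the PBAF complex between 343 and 370, the DNA-binding subunits ARID1A between 31.3 and 45.4 and ARID1B between 4.60 and 5.79, and BRD9 of the non-canonical complex between 4.17 and 5.98. Of these, BRD9 was below con-4c in si-4c (-0.52, SE 0.18, edgeR adjusted p 0.0346) and ARID1A lower in si-4c than si-2c (-0.54, SE 0.15, edgeR adjusted p 0.0136), with an interaction, tested as described below, of -0.78 (edgeR adjusted p 0.00736). SMARCD2 (BAF60B) fell in the si comparison (-1.11, SE 0.36, edgeR adjusted p 0.0267), where si-2c replicate 1 had 5.29 CPM and the other si-2c libraries 2.46 and 2.85. Without that library the difference was -0.70 (edgeR adjusted p 0.200), and the call was also lost without si-4c replicate 1 (-1.15), replicate 2 (-1.10) or replicate 3 (-1.07). SMARCD2 had 0.95 (edgeR adjusted p 0.0540) in the 2c and -0.53 (edgeR adjusted p 0.282) in the 4c knockdown comparison. SMARCD3 (BAF60C), with at most 16 counts in a library, was not tested.

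The ISWI ATPases were SMARCA1 (SNF2L) and SMARCA5 (SNF2H). SMARCA1 ranged from 3.24 to 5.38 CPM for con-2c, 7.01 to 8.94 for con-4c, 7.02 to 8.67 for si-2c and 3.85 to 4.25 for si-4c. Every con-4c and si-2c library was above every con-2c and si-4c library. Its log2 fold changes were 0.92 (SE 0.21, edgeR adjusted p 0.00192), 0.90 (SE 0.20, adjusted p 0.00295) and -0.95 (SE 0.21, adjusted p 0.00153) in the control, 2c knockdown and 4c knockdown comparisons, near but below the minimum fold. All 3 were called with library totals (1.18, 1.28 and -1.21), the first 2 without con-2c replicate 3 (1.14 and 1.15) and the third without con-4c replicate 1 (-1.01). SMARCA5 had 380 to 397 CPM for con-2c, 455 to 476 for con-4c, 438 to 458 for si-2c and 389 to 456 for si-4c, and it was higher in con-4c and si-2c than con-2c by 0.28 and 0.22 (edgeR adjusted p 0.00640 and 0.0314), which became 0.55 and 0.62 under library totals. The second did not pass the edgeR adjusted p under several alternatives, such as leaving out si-2c replicate 1 (0.20, adjusted p 0.0932). In the 4c knockdown comparison SMARCA5 had -0.14 (edgeR adjusted p 0.149), with overlapping libraries.

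The members of the INO80 complex were the ATPase INO80 and the subunits INO80B, INO80C, INO80D and INO80E. INO80C (ENSSSCG00000038859, chr6:119262488-119285852) had 1.15, 1.28 and 0.892 CPM for con-2c, 2.24, 4.54 and 3.09 for con-4c, 1.39, 2.55 and 0.923 for si-2c, and 2.49, 0.578 and 1.40 for si-4c. The con-4c libraries were above con-2c and overlapped both si groups. INO80C rose in the control comparison (1.57, SE 0.48, edgeR adjusted p 0.0173), and this call was lost without con-2c replicate 3 (1.41, edgeR adjusted p 0.0664) or con-4c replicate 2 (1.26, edgeR adjusted p 0.0899). In the 4c knockdown comparison INO80C had -1.14 (edgeR adjusted p 0.0699) and was called under library totals (-1.405), with no filter on low counts (-1.13, edgeR adjusted p 0.0496) or without si-4c replicate 1 (-1.72). Its difference between the knockdown comparisons, by the interaction described below, was -1.68 (edgeR adjusted p 0.0514) and was called under 6 alternatives, with values from -2.34 to -1.67. Counts of INO80C were 20 to 137 in a library. INO80D, with 110 to 119 CPM for con-2c, 123 to 132 for con-4c, 114 to 129 for si-2c and 96.3 to 101 for si-4c, was below con-4c in si-4c (-0.34, SE 0.08, edgeR adjusted p 0.00167) and also below si-2c (-0.30, edgeR adjusted p 0.00596). INO80 itself had group means between 35.4 and 41.8 CPM and passed the edgeR adjusted p in the 4c knockdown comparison (-0.24, adjusted p 0.0464). Over the alternatives its adjusted p there (edgeR or DESeq2) went up to 0.161. INO80B and INO80E had group means up to 0.632 and 3.37 CPM and passed in none of the 3 comparisons.

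The other members were ARID genes, named for their AT-rich interaction domain, and the SNF2 enzymes SMARCAD1 and SMARCAL1. ARID4A and ARID4B, partners of the SIN3 histone deacetylase complex, were higher in con-4c than con-2c by 0.21 and 0.37 (edgeR adjusted p 0.0367 and 0.00338), with group means of 1405 ± 98.8 and 1630 ± 58.1 CPM (SD, n = 3) for ARID4A and 90.5 ± 3.97 and 117 ± 12.1 CPM for ARID4B. ARID4B was also higher in si-2c than con-2c (0.46, edgeR adjusted p 7.62e-04) and below con-4c in si-4c (-0.25, edgeR adjusted p 0.0325). ARID3B and ARID5B, with group means of 6.12 to 9.10 and 12.3 to 16.4 CPM, did not pass the adjusted p in any comparison. ARID3A and ARID3C had at most 25 and 53 counts in a library and ARID5A at most 9, the last not tested. SMARCAD1, which remodels nucleosomes behind replication forks, had group means of 24.9 to 27.9 CPM, and SMARCAL1, which anneals DNA at stalled forks, of 1.07 to 1.86 CPM. Neither passed the adjusted p in any comparison.

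**Figure D3:**
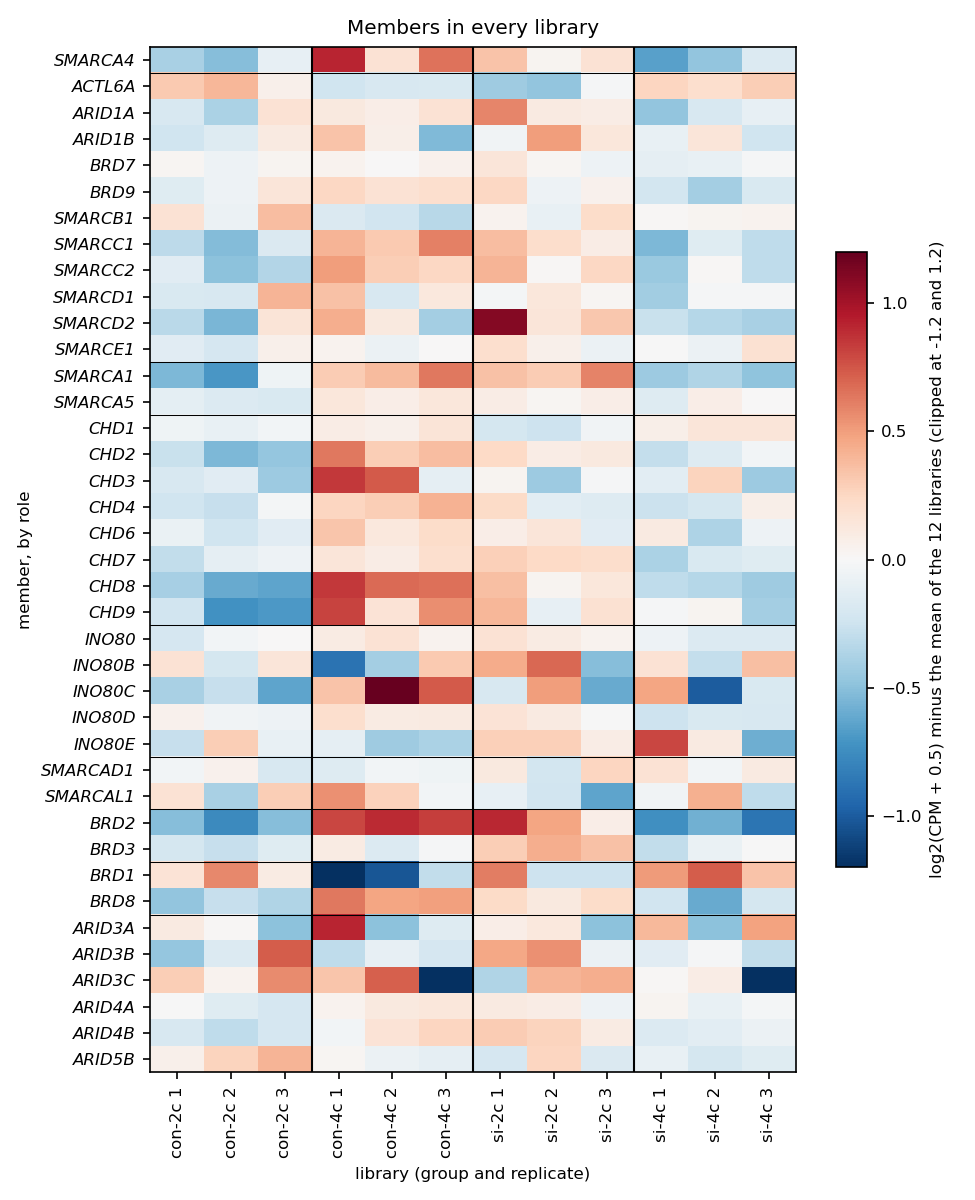
Difference of log2(CPM + 0.5) from the member's own mean over the 12 libraries (colour, clipped at -1.2 and 1.2) for 39 of the 40 tested members (rows, by role) in each library (columns). BRD2, BRD8, CHD8, SMARCA1, SMARCA4 and SMARCC1 are red in the con-4c and si-2c libraries and blue in con-2c and si-4c, and BRD1 is bluest in con-4c.

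Whether the difference between si and control differed between the 2 titles was tested by the interaction, the log2 fold change of the 4c knockdown comparison less that of the 2c one. It called 11 members lower and 2 higher, 13 of 40, where 22.5% of all genes were called lower and 9.87% higher, 32.4% together. Under library totals 23 members were called lower and 0 higher, 57.5% of the 40, where 33.6% of all genes were called lower and 3.19% higher, 36.8% together. Without the minimum fold, with TMM factors again, 21 were lower and 2 higher, beside 27.3% and 18.2% of all genes, 45.5% together. The 2 higher were BRD1 (1.67, SE 0.41, edgeR adjusted p 0.00325) and ACTL6A (1.02, SE 0.16, edgeR adjusted p 6.60e-05). ACTL6A lay close to the minimum fold, with 0.97 by DESeq2, 0.35 (adjusted p 0.0924) under library totals, and 0.95 with genes of at least 1 CPM, and it also lost the call without con-2c replicate 1 (0.998), con-2c replicate 2 (0.95), si-2c replicate 1 (0.96) or si-2c replicate 2 (0.94). BRD1 was 1.003 under library totals (edgeR adjusted p 0.0531). The lowest were BRD2 (-2.75, SE 0.24, edgeR adjusted p 5.87e-08), CHD8 (-1.87, SE 0.18, edgeR adjusted p 2.07e-07) and SMARCA1 (-1.85, SE 0.29, edgeR adjusted p 5.66e-05). SMARCA4, BRD8, CHD9, SMARCC1, CHD2, SMARCC2 and SMARCD2 lay between -1.60 and -1.16. The call of SMARCD2 was lost without con-2c replicate 1 (-1.404), con-2c replicate 2 (-1.29), con-4c replicate 1 (-1.21) or si-2c replicate 1 (-1.06).

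The control comparison and the si comparison share no library. In the latter BRD2 and SMARCD2 fell and no member rose by edgeR or DESeq2 (2 members, ACTL6A and CHD1, were higher at an unadjusted edgeR p below 0.05, and both also at the adjusted p, that is 5% of the members, where 15.4% of all genes were higher at the unadjusted p), beside 11.9% of all genes called lower and 1.47% higher, 13.3% together. Without the minimum fold 15 were lower and 2 higher, beside 16.9% and 12.1% of all genes, 28.9% together. Of the 17 members higher in con-4c at the edgeR adjusted p without a minimum fold, 11 (64.7%) were among the 15 that were lower in si-4c than si-2c (73.3% of these). For all genes the shares were 61.2% and 75.3%, close to those of the members. Among the 11 were ARID4B, BRD2, BRD8, CHD2, CHD7, CHD8, SMARCA1, SMARCA4, SMARCC1 and SMARCC2.

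The crossed comparisons set each si group beside the control group of the other title. In si-4c against con-2c, 0 of 40 members were called by edgeR, 0 by DESeq2 and 0 at the edgeR adjusted p without a minimum fold, while 4 (10%) had an unadjusted edgeR p below 0.05, as did 11.3% of all genes, and 0.333% of all genes were called, 0.0333% higher and 0.300% lower (0.672% without a minimum fold, 0.106% higher and 0.567% lower). The log2 fold change was -0.14 for BRD2 (95% confidence interval -0.49 to 0.22), 0.19 for CHD8 (-0.08 to 0.46), -0.10 for SMARCA4 (-0.51 to 0.32) and 0.26 for BRD1 (-0.35 to 0.86). Differences beyond the minimum fold lie outside these 4 intervals, but smaller ones do not. INO80C had 0.43 with an interval of -0.60 to 1.45, wide enough to hold a change past the minimum fold.

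In si-2c against con-4c, 0 members were called by edgeR or DESeq2, and 11 (27.5%) had an unadjusted edgeR p below 0.05, as did 19.3% of all genes, while 1.79% of all genes were called, 0.161% higher and 1.63% lower. CHD8 and CHD1 were lower at the edgeR adjusted p, as given above, where 5.32% of all genes were lower and 2.22% higher, 7.54% together. BRD2 had -0.33 (95% confidence interval -0.67 to 0.02, edgeR adjusted p 0.291) and SMARCA4 -0.43 (-0.83 to -0.03, edgeR adjusted p 0.214). Over the alternatives BRD2 ranged from -0.56 to -0.14, with an adjusted p (edgeR or DESeq2) down to 0.0352. SMARCA4 ranged from -0.61 to -0.24, with an adjusted p down to 0.0785.

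Genes of the same pathways that the rule did not take were read from 6 lists, by their counts and medians beside those of all genes (MTA1, RBBP4, TAF1 and ERCC6 of these lists were not analysed here). The INO80, SRCAP and TIP60 partners (16 tested) held the most called genes. In the control comparison 7 were called higher and 0 lower (14.4% and 3.25% of all genes), in the 2c knockdown comparison 4 higher (10.7% of all genes), and in the 4c knockdown comparison 8 lower and 0 higher (15.8% and 3.12% of all genes). The medians were 1.02, 0.20 and -1.15, beside 0.11, 0.12 and -0.11 for all genes. Without the minimum fold 3 of the 16 partners were lower in the control comparison (where 15.1% of all genes were), UCHL5 (-0.43), ACTR6 (-0.77) and VPS72 (-0.65), and 5 of the 16 were higher in the 4c knockdown comparison (15.1% of all genes), the same 3 (0.72, 0.75 and 0.63) with RUVBL1 (0.45) and YEATS4 (0.36), which were named after their values were seen. RUVBL2, an AAA+ ATPase of INO80, SRCAP and TIP60 complexes, rose from 1.43 ± 0.629 CPM in con-2c to 12.8 ± 1.06 in con-4c (3.16, SE 0.29, edgeR adjusted p 1.83e-07) and had 5.03 ± 0.871 in si-2c and 2.06 ± 0.577 in si-4c. ACTR5, an actin-related subunit of INO80, rose from 0.535 ± 0.118 to 7.55 ± 0.336 CPM (3.81, SE 0.35, edgeR adjusted p 1.90e-07) and had 5.56 ± 1.36 in si-2c and 0.615 ± 0.321 in si-4c (all SD, n = 3). YY1, the zinc finger protein that binds with INO80, fell from 15.5 ± 2.80 CPM in con-4c to 4.72 ± 0.622 in si-4c (-1.72, SE 0.17, edgeR adjusted p 5.47e-07), and ACTR5 fell there too (-3.61, SE 0.34, edgeR adjusted p 2.78e-07). The log2 fold changes of RUVBL2 and ACTR5 were beyond those of all 5 INO80 members in the control comparison.

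Of the other bromodomain genes (17 tested), 5 were called higher in the control comparison, 3 higher in the 2c knockdown comparison and 3 lower in the 4c knockdown comparison, and 0 in the other direction, by edgeR. These are 29.4%, 17.6% and 17.6% of the list, beside 14.4%, 10.7% and 15.8% of all genes, so the share in the 4c knockdown comparison was close to that of the table. Their medians were 0.60, 0.36 and -0.45, beside 0.11, 0.12 and -0.11. BRDT, the germline BET gene, rose from 158 ± 15 CPM in con-2c to 394 ± 9.31 in con-4c (1.31, SE 0.09, edgeR adjusted p 5.20e-09) and fell to 180 ± 8.06 in si-4c (-1.13, SE 0.09, edgeR adjusted p 3.28e-08, against con-4c). ATAD2B, an AAA+ protein with a bromodomain, rose from 25.2 ± 4.56 to 72.9 ± 3.45 CPM (1.54, SE 0.12, edgeR adjusted p 3.08e-08) and had 26.8 ± 2.95 in si-4c (-1.44, SE 0.12, edgeR adjusted p 6.08e-08, against con-4c).

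The 4 remaining lists had at most 2 called genes each in any of the 3 comparisons, and the ISWI partners held 2 of 9 (22.2%) in the control comparison, beside 17.7% of all genes. The other SWI/SNF subunits (13 tested) had 0 called by edgeR in the control comparison, where 5 passed the adjusted p, 2 higher and 3 lower (38.5%, beside 35.8% of all genes), and a median of -0.04, beside 0.11 for all genes. In the 4c knockdown comparison their median was 0.27 and SS18L1, a subunit of the BAF complex of neurons, rose from 1.04 ± 0.0201 to 2.12 ± 0.182 CPM (1.02, SE 0.37, edgeR adjusted p 0.0408). Among ISWI partners (9 tested), CHRAC1, a histone-fold subunit of the CHRAC complex, fell from 131 ± 4.90 CPM in con-2c to 62.1 ± 3.35 in con-4c (-1.08, SE 0.07, edgeR adjusted p 5.71e-09) and BAZ2A, the nucleolar partner of SMARCA5, rose (1.05, SE 0.18, edgeR adjusted p 2.43e-04). Of NuRD partners (10 tested), MTA2 rose in the control comparison and fell in the 4c knockdown comparison (4.07 and -3.79, edgeR adjusted p 0.00946 and 0.0125), from means of 0.0806 and 0.0996 CPM in con-2c and si-4c against 1.42 in con-4c, so the size of its fold depends on very few counts. Of other SNF2 ATPases (9 tested), RAD54L2 rose in the control comparison (1.17, SE 0.17, edgeR adjusted p 4.47e-05) from 10.3 ± 3.25 to 23.1 ± 1.85 CPM.

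**Figure D4:**
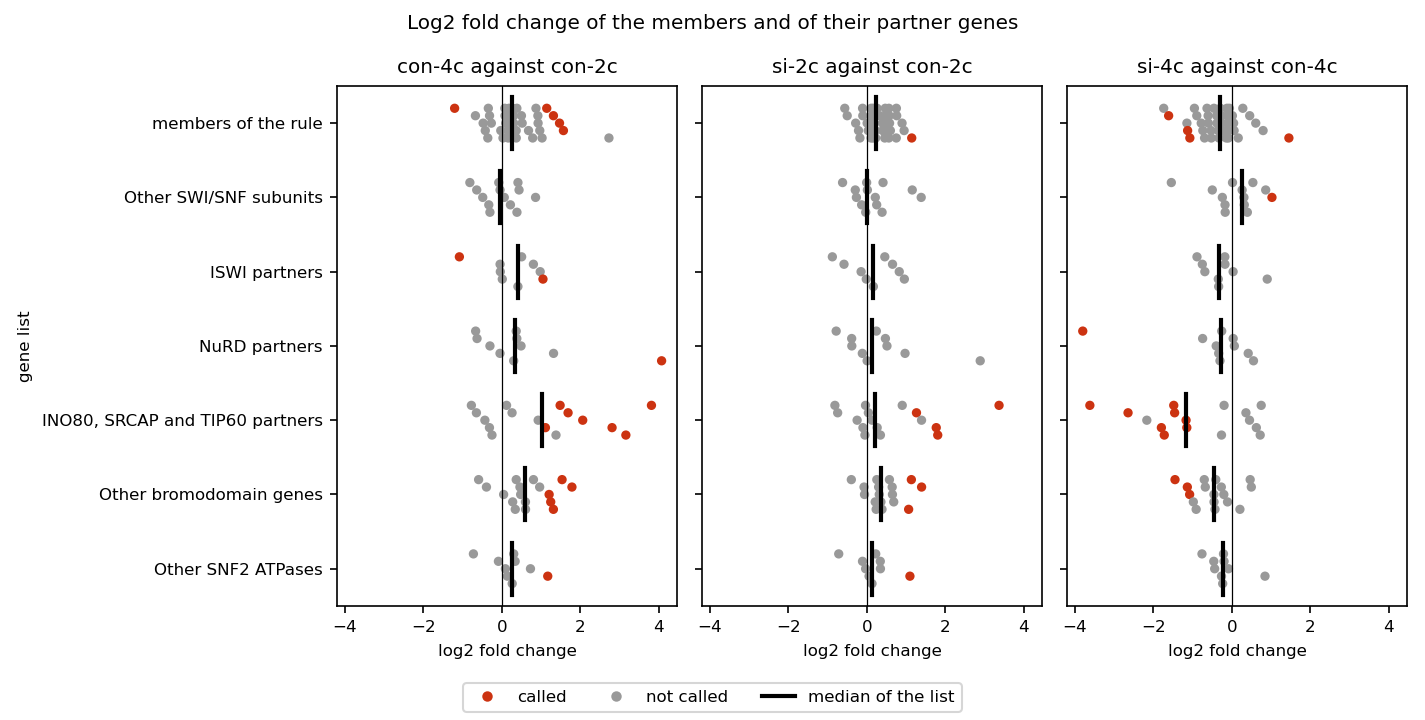
Log2 fold change (x axis) of the members and of the genes in 6 partner lists (y axis) in 3 comparisons, with 1 point per tested gene, called genes in red and the median of a list as a black bar. The list of INO80, SRCAP and TIP60 partners has its median at 1.02 in the control comparison and at -1.15 in the 4c knockdown comparison, and the members have theirs at 0.26 and -0.31.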

How the data were processed

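SMART-seq counts of 12 libraries were analysed. The values deposited by the authors are unnormalized counts of reads for each Ensembl gene. Per the labels, the submitters' processing notes name cutadapt 1.9, HISAT2 2.2.1, StringTie 2.1.6, DESeq2, edgeR and the build Sscrofa11.1, without roles. The annotation release, the counting of shared reads and the use of strand are not given in the sources used here, so values of overlapping, antisense and near-identical genes are uncertain. No source names molecular identifiers, so a read cannot be taken as 1 molecule, and precision was judged from the replicates.

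The tests used edgeR 4.0.16 under R 4.3.3: filterByExpr, TMM factors (0.852 to 1.21) and 1 quasi-likelihood fit of the 4 group means (biological coefficient of variation 27.3%), with Benjamini-Hochberg adjustment over all 17995 genes tested. A call took an adjusted p under 0.05 and a log2 fold change of 1 or more in size, as in the study. Standard errors came from the log2 fold change over the root of F, and 95% confidence intervals use the total degrees of freedom of edgeR (residual plus prior, median 16.2). CPM are TMM-scaled. Levels were not compared between genes, because transcript lengths were not used. Procedures were tested on simulated data.

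Members called in the control comparison, a knockdown comparison or a crossed one were named with every library's value, other members with ranges or group means, and partner lists with up to 2 called genes in each direction. Of the 42 members, 1 counts in the totals and is not reported here by itself. The members and lists were chosen with earlier results of these data known. Positions are from the RefSeq annotation of Sscrofa11.1, matched by symbol for 41 of 42 members, and all 42 symbols matched the gene name table supplied. Alternatives were DESeq2 1.42.0, library totals, other filters, no minimum fold, fits of the compared groups only, a replicate block, and leaving out each library. No pair of libraries in a group looked like a repeat deposit (chi-square over its degrees of freedom 7.27 or more).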

Additional observations from a re-analysis of the deposited data

Results flagged for a closer look

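For 12 members reported here the difference between si and control libraries differed between the titles 2c and 4c by the interaction test of edgeR (adjusted p under 0.05, with a log2 difference of 1 or more in size). With TMM factors the test called 32.5% of the tested members and 32.4% of all genes, and with library totals 57.5% and 36.8%, so whether the members were called at the rate of the whole table depends on the scaling. The interaction was negative, a lower value of si over control under the title 4c than under 2c, for BRD2 (-2.75), CHD8 (-1.87), SMARCA1 (-1.85), SMARCA4 (-1.60), SMARCD2 (-1.48), BRD8 (-1.46), CHD9 (-1.45), SMARCC1 (-1.34), CHD2 (-1.18) and SMARCC2 (-1.16). It was positive for BRD1 (1.67) and ACTL6A (1.02). SMARCD2 passed neither knockdown comparison by itself (0.95, edgeR adjusted p 0.0540, and -0.53, edgeR adjusted p 0.282), and its libraries overlapped between si and control under both titles. The libraries on which the interaction calls of ACTL6A and SMARCD2 rest are given above.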

How the results depend on the processing

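Library totals in place of TMM moved most counts: 9 members were then called higher (22.5%, beside 17.9% of all genes) and 0 lower in the control comparison, 5 higher in the 2c knockdown comparison (12.5%, beside 16.8%), 7 lower in the 4c knockdown comparison (17.5%, beside 18.7%), 4 lower in the si comparison (10%, beside 17.2%), 1 higher in si-2c against con-4c (2.5%, beside 0.333%), and 23 lower (57.5%, beside 33.6%) and 0 higher (beside 3.19%) by the interaction. Without a minimum fold, where the shares of all genes are given above, the counts were 17 higher and 3 lower in the control comparison, 14 and 1 in the 2c knockdown comparison, 2 and 17 in the 4c knockdown comparison, 2 and 15 in the si comparison, 2 lower in si-2c against con-4c and 21 lower by the interaction. DESeq2 and the filter of at least 1 CPM each called 1 member higher by the interaction (2.38% and 2.70%, beside 7.22% and 12.3% of all genes). With 1 library left out, the number called higher was 3 to 5 in the control comparison, 0 to 3 in the 2c knockdown comparison (0 if si-2c replicate 1 was left out, 2 if si-2c replicate 2 was, and 3 if con-2c replicate 3 was), 0 to 1 in si-2c against con-4c and 1 to 2 by the interaction, and the number lower was 1 to 2 in the si comparison (1 without si-2c replicate 1 or any si-4c library) and 9 to 12 by the interaction. The cause of these moves was not tested, except that a lower threshold calls more genes.

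Some signs turned, also of CHD1 in the si comparison, which had passed the adjusted p. Library totals gave 0.20 for BRD1 in the 2c knockdown comparison and -0.10 for CHD1 in the si comparison. Leaving out 1 library gave ranges of -0.25 to 0.011 for SMARCA4 and -0.16 to 0.81 for INO80C in si-4c against con-2c, -0.70 to 0.37 for INO80C in the si comparison, and -0.0305 to 0.0976 for CCNB2 in the control comparison. The replicate block left every count as it was, for example 4 higher and 1 lower in the control comparison. Same-numbered libraries did not deviate together (r between -0.05 and 0.029 over 18 pairs), and 5 of 12 libraries correlated best with their own number. Members with few counts (CHD3, ARID3A, ARID3C, INO80B) had intervals too wide to read. Several other members past the adjusted p lost it in at least 1 alternative. BRD2 and CHD8 kept it in the control, knockdown and si comparisons. The highest adjusted p (edgeR or DESeq2) was 0.0642 for CHD6, 0.111 for CHD7 and 0.192 for ARID4A in the control comparison. It was 0.0793 for CHD9 in the 2c knockdown comparison. In the 4c one it was 0.1735 for CHD6, 0.115 for CHD9, 0.130 for BRD9 and 0.173 for ARID4B.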
